A study of Mus musculus with 2 samples.

Results

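The genes described here make endogenous ligands of the aryl hydrocarbon receptor (AHR) from tryptophan, or carry, split or charge tryptophan. They were chosen by symbol as Ido1, Ido2, Tph1, Il4i1, Kynu, Kmo, Afmid, Slc7a5, Slc3a2 and Wars, 10 of the 32285 genes in the feature tables, and each symbol matched 1 gene. The study sorted live (DAPI-) eYFP+ cells from the stromovascular fraction (SVF) of perigonadal white adipose tissue (gWAT) of male mice and sequenced their RNA cell by cell. Both groups carried the Cyp1a1Cre x R26LSL-eYFP genotype, in which Cre driven from Cyp1a1, a direct AHR target, leaves a lasting eYFP label, and both received the AHR ligand FICZ at 10 mg/kg, with collection 5 days later. The LFD group ate a purified diet with 10% of energy as fat (D12450J) and the HFD group one with 60% (D12492), each for 12 weeks. Each diet had 1 library of pooled cells that could not be linked to single mice, the labels give no age, and no group lacked FICZ or the reporter.

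With 1 library per diet there is no test between diets. Each level is given as UMIs per 1000000 UMIs of a cell type in a library (CPM) with its exact 95% Poisson interval, each ratio is the HFD CPM over the LFD CPM with its exact conditional 95% interval, and both intervals cover counting error only. A difference whose interval leaves out 1 is called beyond counting error, which does not separate diet from mouse, sort or library.

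The LFD matrix held 11281 barcodes and 114311020 UMIs, and the HFD matrix 9631 barcodes and 119498750 UMIs. After filters and doublet removal 9294 LFD and 7879 HFD cells remained, with medians of 10223 and 12721 UMIs, and the libraries shared 21 barcodes among them. Clusters were named from marker lists. Of 10 dendritic markers 7 marked the dendritic cell-like cluster (108 LFD and 80 HFD cells), of 9 ILC2 markers 9 and of 8 T cell markers 7 marked the T/ILC2-like cluster (236 and 228), and all 10 plasma cell markers marked both plasma cell-like clusters (387 and 1375 cells in all). The Wt1 stromal-like name is weaker than its label reads, since that cluster (3240 and 1411 cells) carried 6 of 8 Wt1 stromal markers, 7 of 10 mesothelial and 8 of 12 adipocyte progenitor markers. Cyp1a1 itself was at 594 CPM in LFD against 681 CPM in HFD endothelial-like cells, against at most 6.45 CPM in dendritic cell-like and 2.16 CPM in plasma cell-like cells.

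Tryptophan is an essential amino acid that cells import through the large neutral amino acid carrier of SLC7A5 and SLC3A2 and attach to its tRNA with the synthetase WARS. Most of what is broken down enters the kynurenine route, which IDO1, IDO2 or TDO2 opens and which AFMID, KMO and KYNU continue, and kynurenine and several later products bind AHR. TPH1 opens a separate route to serotonin and melatonin, and IL4I1, an oxidase secreted by antigen-presenting cells, turns tryptophan into indole-3-pyruvate, a further source of AHR ligands.

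Promoters are printed for Tph1, Il4i1 and Kmo, the members with an entry whose highest level, in an immune cell type, was at least 6.12-fold above the next type in each library, because these cells were selected through an AHR-driven reporter. RefSeq promoters of GRCm38.p6 matched 5 of the 10 members with 6 start sites, and Ido1, Ido2, Kynu, Slc7a5 and Wars had no entry. Each run holds the 250 bases before a start, 5′ to 3′ along the gene, and capitals mark GCGTG, the core of the element that AHR binds with its partner ARNT. The Tph1 runs are chr7:46672538-46672787 (upstream start) and chr7:46667378-46667627 (downstream start), both on the minus strand. The Il4i1 run is chr7:44836038-44836287 and the Kmo run chr1:175631943-175632192, both on the plus strand.
Tph1 upstream start: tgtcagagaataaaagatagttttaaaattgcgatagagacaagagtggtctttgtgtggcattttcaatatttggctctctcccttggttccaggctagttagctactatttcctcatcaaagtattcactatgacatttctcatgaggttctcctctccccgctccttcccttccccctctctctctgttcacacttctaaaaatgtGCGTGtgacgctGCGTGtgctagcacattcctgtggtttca
Tph1 downstream start: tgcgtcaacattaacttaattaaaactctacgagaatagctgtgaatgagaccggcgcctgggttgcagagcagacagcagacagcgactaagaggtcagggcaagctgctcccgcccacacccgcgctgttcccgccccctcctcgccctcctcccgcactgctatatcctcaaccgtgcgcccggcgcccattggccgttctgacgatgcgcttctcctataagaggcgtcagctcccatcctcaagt
Il4i1: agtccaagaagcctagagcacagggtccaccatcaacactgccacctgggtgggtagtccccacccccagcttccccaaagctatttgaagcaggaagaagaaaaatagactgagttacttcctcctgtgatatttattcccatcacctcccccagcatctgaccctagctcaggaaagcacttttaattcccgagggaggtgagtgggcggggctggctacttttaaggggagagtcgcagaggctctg
Kmo: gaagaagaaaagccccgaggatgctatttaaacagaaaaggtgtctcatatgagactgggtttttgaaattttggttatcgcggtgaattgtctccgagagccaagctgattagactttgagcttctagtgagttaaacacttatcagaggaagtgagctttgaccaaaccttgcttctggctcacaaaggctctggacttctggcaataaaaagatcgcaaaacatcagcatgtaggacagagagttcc
On either strand of windows of 300 bases (250 before and 50 after the start), GCGTG was present in 32.4% of 32851 mouse promoters. Among the member windows, those of Afmid and Slc3a2 included, only the upstream Tph1 start held it, with 2 matches that did not overlap. The interferon element TTCNNNGAA (8.30% of all promoters) and the amino acid response element TGATGNAAN (3.95%) matched none of the 6 windows. These are matches of letters only, and reads from the 3′ end of transcripts do not tell which start was used.

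Ido1 and Ido2, the inducible openers of the kynurenine route, were near absent from these cells. Over all kept cells Ido1 had 11 UMIs in 11 cells and Ido2 had 6 UMIs in 6 cells. Ido1 had 3 LFD and 2 HFD UMIs in endothelial-like cells (0.79 and 0.807 CPM) and 2 LFD and 0 HFD UMIs in dendritic cell-like cells. Ido2 had 3 UMIs in LFD dendritic cell-like cells (3.87 CPM) and 0 in HFD. No type within a library exceeded 3 UMIs of either gene, and macrophage-like, T/ILC2-like, mesothelial-like and cycling stromal-like cells had 0 of both, so no ratio between diets is given. These genes lie on the minus strand at chr8:24584136-24597009 (Ido1) and chr8:24531892-24576333 (Ido2).

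The third enzyme of that step, Tdo2, which is best known from liver, was instead abundant in 3 of the 4 stromal types, and low in APC-like cells (7.46 and 2.49 CPM). It had 26976 UMIs in 4363 cells, and was at 174 CPM in LFD against 175 CPM in HFD Wt1 stromal-like cells (ratio 1.01, 0.969 to 1.05). In mesothelial-like cells Tdo2 was at 238 and 187 CPM (ratio 0.787, 0.757 to 0.819), and in cycling stromal-like cells at 240 and 189 CPM (ratio 0.787, 0.747 to 0.829). Tdo2 was therefore lower in the HFD library beyond counting error in both. The cycling stromal-like cluster carried 9 of 10 mesothelial markers, and the part of these markers in its Tdo2 ratio was not tested. In the other named types Tdo2 was at most 7.86 CPM, near or under the level estimated for free RNA. In LFD and HFD endothelial-like cells it was at 6.58 and 2.42 CPM against an estimated 5.50 and 2.64 CPM, and in plasma cell-like cells at 4.12 and 1.75 CPM against 3.08 and 1.60 CPM. The APC-like levels were below their estimates of 30.0 and 3.28 CPM, so no difference between the libraries is read in these types.

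Afmid, the formamidase that frees kynurenine, was spread over nearly all types at a low level. It was at 9.1 CPM in LFD against 9.57 CPM in HFD Wt1 stromal-like cells (ratio 1.05, 0.885 to 1.25), at 14.7 and 13.3 CPM in T/ILC2-like cells, and at 2.11 and 2.42 CPM in endothelial-like cells. No ratio of Afmid between the libraries left out 1. In the order of levels within a library, neighbouring types were not apart beyond counting error, except that macrophage-like cells exceeded endothelial-like cells in HFD (2.79-fold, 1.1 to 8.38). Afmid (chr11:117825924-117839908, plus strand) is overlapped on the opposite strand by the proliferation gene Tk1 and on the same strand by Gm20708, so reads could be split with the latter.

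Kmo and Kynu, which turn kynurenine into 3-hydroxykynurenine and split it towards anthranilate, were highest in dendritic cell-like cells. Kmo was at 99.3 CPM (78.4 to 124, 77 UMIs) in LFD against 106 CPM (82.1 to 134, 68 UMIs) in HFD dendritic cell-like cells, a ratio of 1.06 (0.757 to 1.49). Kynu was at 86.4 CPM (67 to 110, 67 UMIs) in LFD against 40.4 CPM (26.4 to 59.2, 26 UMIs) in HFD dendritic cell-like cells, a ratio of 0.468 (0.285 to 0.746). In the same cells, then, Kynu was lower in the HFD library beyond counting error and Kmo was not.

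A Kmo UMI was found in 50 of 108 LFD (46.3%) and 38 of 80 HFD (47.5%) dendritic cell-like cells, and in 0 of 3240 and 0 of 1411 Wt1 stromal-like cells, although the latter were deeper (medians 11008.5 and 16835 against 7205.5 and 7796 UMIs). After each cell was thinned to 2000 UMIs, which left out 4 LFD and 3 HFD dendritic cell-like cells, Kmo was in 12.5% of 104 and 13.0% of 77 cells, and 0 of 3228 thinned LFD Wt1 stromal-like cells allow a share of cells with a UMI of up to 0.0929% at that depth, which is no limit on cells that express the gene. A Kynu UMI was in 42.6% of LFD and 22.5% of HFD dendritic cell-like cells, 18.3% and 6.49% after thinning. At equal depth, then, UMIs of both genes were found in more dendritic cell-like than Wt1 stromal-like cells.

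B-like cells came next for Kynu, at 19.2 CPM in LFD against 16 CPM in HFD (ratio 0.83, 0.6 to 1.14). Dendritic cell-like cells exceeded them 4.49-fold (3.25 to 6.18) in LFD against 2.53-fold (1.54 to 4.04) in HFD. Kmo was at 14.7 CPM (11.6 to 18.3, 77 UMIs) in LFD against 6.67 CPM (4.43 to 9.64, 28 UMIs) in HFD B-like cells, lower in the HFD library with a ratio of 0.455 (0.284 to 0.71). Macrophage-like cells held Kmo at 7.56 and 7.05 CPM and Kynu at 3.98 and 1.18 CPM in LFD and HFD, the last from 4 UMIs. Plasma cell-like cells had 0 Kynu UMIs in both libraries, although B-like cells held the gene. Haao, which acts after Kmo, shared the B-like and dendritic cell-like pattern, at 28.6 and 32.6 CPM in B-like (ratio 1.14, 0.9 to 1.45) and 18.1 and 24.9 CPM in dendritic cell-like cells, and was at most 2.41 CPM elsewhere. Kmo lies at chr1:175620381-175662116 and Kynu at chr2:43555329-43682715, both on the plus strand.

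**Figure D1:**
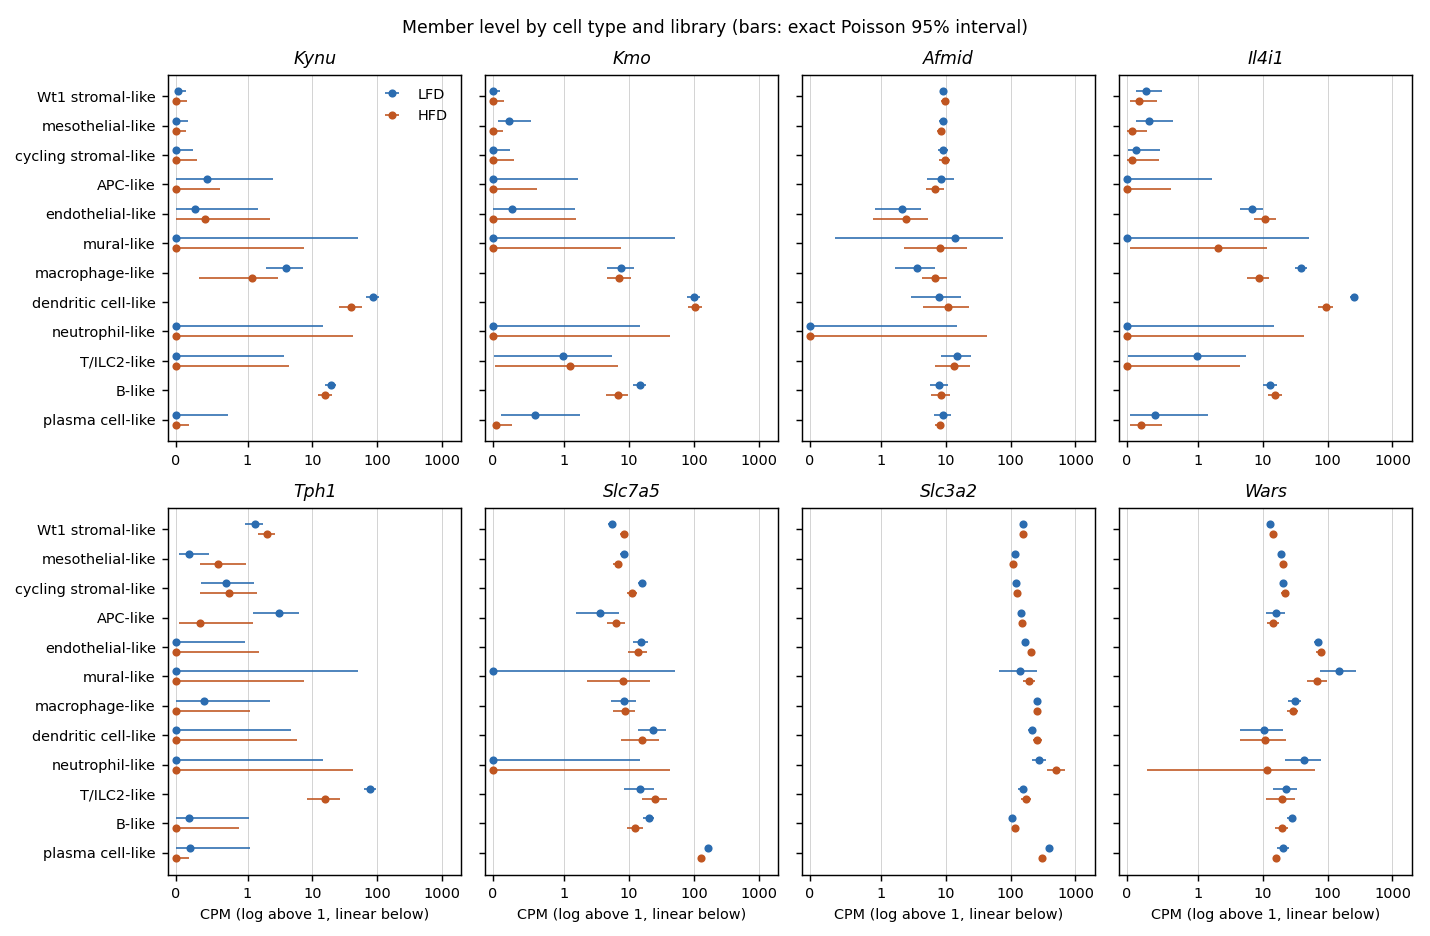
Level of 8 members in CPM (x axis, logarithmic above 1 and linear below) in each named cell type (y axis), with 1 point per library (LFD blue, HFD orange) and exact Poisson 95% intervals as bars. Kynu, Kmo and Il4i1 peaked in dendritic cell-like cells, Tph1 in T/ILC2-like cells and Slc7a5 in plasma cell-like cells, while Afmid and Slc3a2 were present in nearly all types.

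Il4i1 had its highest level in dendritic cell-like cells and was lower in the HFD library there and in macrophage-like cells. It was at 257 CPM (222 to 295, 199 UMIs) in LFD against 93.3 CPM (71.2 to 120, 60 UMIs) in HFD dendritic cell-like cells, a ratio of 0.363 (0.268 to 0.487). In macrophage-like cells Il4i1 was at 38.6 CPM (31.3 to 47.1, 97 UMIs in 47 cells) in LFD against 8.52 CPM (5.71 to 12.2, 29 UMIs in 18 cells) in HFD, a ratio of 0.221 (0.14 to 0.337). The 10 plasma cell markers summed to 201 CPM in LFD against 830 CPM in HFD dendritic cell-like cells, and their part in the Il4i1 and Kynu values there was not tested. The macrophage-like ratio was 0.234 without the cell with the most Il4i1 UMIs in each library.

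B-like and endothelial-like cells held less Il4i1, and their ratios did not leave out 1. Il4i1 was at 12.8 and 15.3 CPM in LFD and HFD B-like cells (ratio 1.2, 0.835 to 1.71) and at 6.85 and 10.9 CPM in endothelial-like cells (ratio 1.59, 0.894 to 2.84). The order of levels therefore differed between the libraries. In LFD, dendritic cell-like cells were above macrophage-like cells 6.65-fold (5.19 to 8.56), these above B-like cells 3.03-fold (2.19 to 4.2) and these above endothelial-like cells 1.86-fold (1.17 to 3.05). In HFD, dendritic cell-like cells were above B-like cells 6.12-fold (4.23 to 8.84), and B-like, endothelial-like and macrophage-like cells were not apart as neighbours.

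The Il4i1 UMIs of dendritic cell-like cells came from few cells. Il4i1 was found in 22 of 108 LFD (20.4%) and 9 of 80 HFD cells (11.2%), and after thinning in 19.2% and 7.79%. Wt1 stromal-like cells, which should lack it, had an Il4i1 UMI in 0.309% of LFD cells and in 0 of 3228 thinned ones. In LFD, 1 cell held 31 of the UMIs and in HFD 1 cell held 20, and without these cells Il4i1 was at 218 and 62.9 CPM.

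Most of these cells carried markers of mature dendritic cells (Ccr7, Fscn1, Ccl22, Cacnb3, Socs2), the state in which dendritic cells migrate to lymph nodes. At least 2 of the 5 markers were present in 19 of 22 LFD and 9 of 9 HFD dendritic cell-like cells with Il4i1. In mature cells Il4i1 was at 1730 CPM (1477 to 2015) over 20 LFD cells and 995 CPM (759 to 1281) over 9 HFD cells, a ratio of 0.575 (0.421 to 0.777). Among type 1 cells (Xcr1, Clec9a and like markers), which were 67 LFD and 66 HFD cells, 1 Il4i1 UMI was found in LFD against 0 in HFD. The number of mature cells (20 of 108 and 9 of 80) moved with the lower Il4i1 level of the whole HFD cluster, and its part in that level was not tested.

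Kmo had the opposite distribution. Type 1 cells held Kmo at 121 CPM in LFD against 114 CPM in HFD (ratio 0.937, 0.654 to 1.34), whereas mature cells had 2 Kmo UMIs in LFD against 0 in HFD. A Kmo UMI was found in 13.6% of LFD dendritic cell-like cells with Il4i1 and in 54.7% of those without, without thinning. Kynu was in both states in LFD, at 167 CPM (16 UMIs) in mature and 68.8 CPM in type 1 cells. In HFD it was at 46.9 CPM in type 1 cells (ratio 0.682, 0.398 to 1.15) and had 0 UMIs in the 9 mature cells. The ratio of Kynu within type 1 cells thus did not leave out 1, unlike that of the whole cluster.

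In macrophage-like cells at least 2 of the 5 mature markers were found in 0 of 47 LFD and 0 of 18 HFD cells with Il4i1. The summed level of the 5 mature markers was 30.3 CPM in LFD against 28.5 CPM in HFD macrophage-like cells, against 696 and 672 CPM in dendritic cell-like cells. Il4i1 (chr7:44816387-44840809, plus strand) overlaps Nup62 on the same strand, so reads could be split between them, and Nup62 was at 30.3 and 25.6 CPM in macrophage-like cells.

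**Figure D2:**
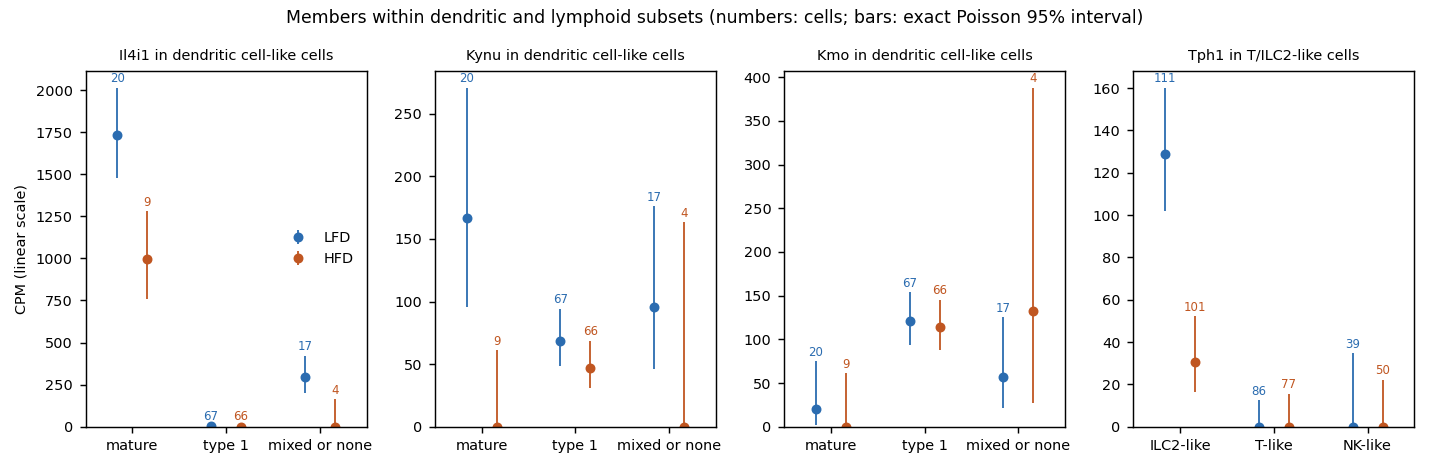
CPM on a linear scale of Il4i1, Kynu and Kmo in dendritic states, and of Tph1 in the 3 groups that T/ILC2-like cells formed at a finer clustering, with exact Poisson 95% intervals and the number of cells above each bar. Il4i1 lay in mature cells, Kmo in type 1 cells and Tph1 in ILC2-like cells, in both libraries.

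Tph1, which hydroxylates tryptophan on the way to serotonin outside the brain, was concentrated in ILC2-like lymphocytes and was lower there in the HFD library. T/ILC2-like cells had Tph1 at 78.6 CPM (62.3 to 97.8, 80 UMIs in 18 cells) in LFD against 15.7 CPM (8.35 to 26.8, 13 UMIs in 6 cells) in HFD, a ratio of 0.2 (0.102 to 0.361) that was 0.368 under a stricter cell filter. They exceeded the next type 25.6-fold (11.9 to 65.6) in LFD against 7.95-fold (3.95 to 14.9) in HFD. All 24 cells with Tph1 fell among the ILC2-like cells of the finer clustering, in which Tph1 was at 129 CPM (102 to 160) over 111 LFD cells and 30.6 CPM (16.3 to 52.2) over 101 HFD cells, a ratio of 0.237 (0.121 to 0.429). T-like cells (86 LFD and 77 HFD) and NK-like cells (39 and 50) had 0 Tph1 UMIs. The plasma cell markers of T/ILC2-like cells, given below with Slc7a5, moved between the libraries as well. Their part in the Tph1 ratio was not tested.

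Few cells carried this signal. Tph1 was found in 7.63% of LFD and 2.63% of HFD T/ILC2-like cells (median depths 3212.5 and 3158 UMIs), against 0 of 662 LFD and 0 of 603 HFD endothelial-like cells (3961 and 2899 UMIs). After thinning, which left out 51 LFD and 54 HFD T/ILC2-like cells, Tph1 was in 10 of 185 (5.41%) and 5 of 174 cells (2.87%). Without the top cell of each library, which held 19 LFD and 5 HFD UMIs, the ratio was 0.16 (0.066 to 0.336). Of the 18 LFD cells with Tph1, 8 were cycling, against 53 of 236 T/ILC2-like cells, and of the 6 HFD cells 0 were, against 26 of 228. Cells with Tph1 were also deeper in UMIs than the others (medians 7961 against 3035 in LFD against 3887 against 3140 in HFD), and the part of depth in these shares was not tested. Of 7 mast cell markers, whose cells also make serotonin, 6 were at 0 in ILC2-like cells of both libraries and the other was Hdc.

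Outside these lymphocytes Tph1 was low. Wt1 stromal-like cells held it at 1.3 CPM (49 UMIs in 41 cells) in LFD against 1.97 CPM (47 UMIs in 18 cells) in HFD, a ratio of 1.52 (0.997 to 2.32) that was 1.38 (0.88 to 2.15) without the top cells. Endothelial-like, dendritic cell-like, mural-like and neutrophil-like cells had 0 Tph1 UMIs. Tph1 lies at chr7:46644641-46672537 on the minus strand.

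Other serotonin genes lay in other types. Ddc, the decarboxylase that completes serotonin, had 0 UMIs in LFD and 2 UMIs in HFD T/ILC2-like cells (2.41 CPM), and was at 6.56 CPM in LFD against 4.11 CPM in HFD Wt1 stromal-like cells (ratio 0.627, 0.491 to 0.795). In mesothelial-like cells Ddc was at 4.62 and 2.5 CPM (ratio 0.541, 0.388 to 0.747), and in cycling stromal-like cells, its highest HFD level, at 6.03 and 7.06 CPM (ratio 1.17, 0.864 to 1.59). Slc6a4, the serotonin transporter, was higher in the HFD library in both, at 0.873 and 2.14 CPM in Wt1 stromal-like (ratio 2.45, 1.55 to 3.92) and 5.98 and 10.5 CPM in mesothelial-like cells (ratio 1.75, 1.42 to 2.17). The 10 mesothelial markers summed to 128 and 422 CPM in Wt1 stromal-like cells, and their part in its Slc6a4 values was not tested. Maoa, a monoamine oxidase that degrades serotonin, was at 32.4 and 28.2 CPM in endothelial-like cells, and at 3.98 and 10.3 CPM in macrophage-like cells (ratio 2.58, 1.25 to 5.85). It was at 23.7 and 27.1 CPM in Wt1 stromal-like, 24.0 and 27.5 CPM in mesothelial-like and 24.4 and 31.0 CPM in cycling stromal-like cells. These ratios (1.14, 1.15 and 1.27) left out 1, but only the last did so relative to the median gene of its type. Maob, the other oxidase, was at 7.36 and 9.94 CPM in Wt1 stromal-like cells (ratio 1.35, 1.13 to 1.61). Tph1 and Ddc, which act one after the other, thus had their highest levels in different cell types in each library. The 2 Ddc UMIs of HFD T/ILC2-like cells are too few to set these below the highest type beyond counting error.

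**Figure D3:**
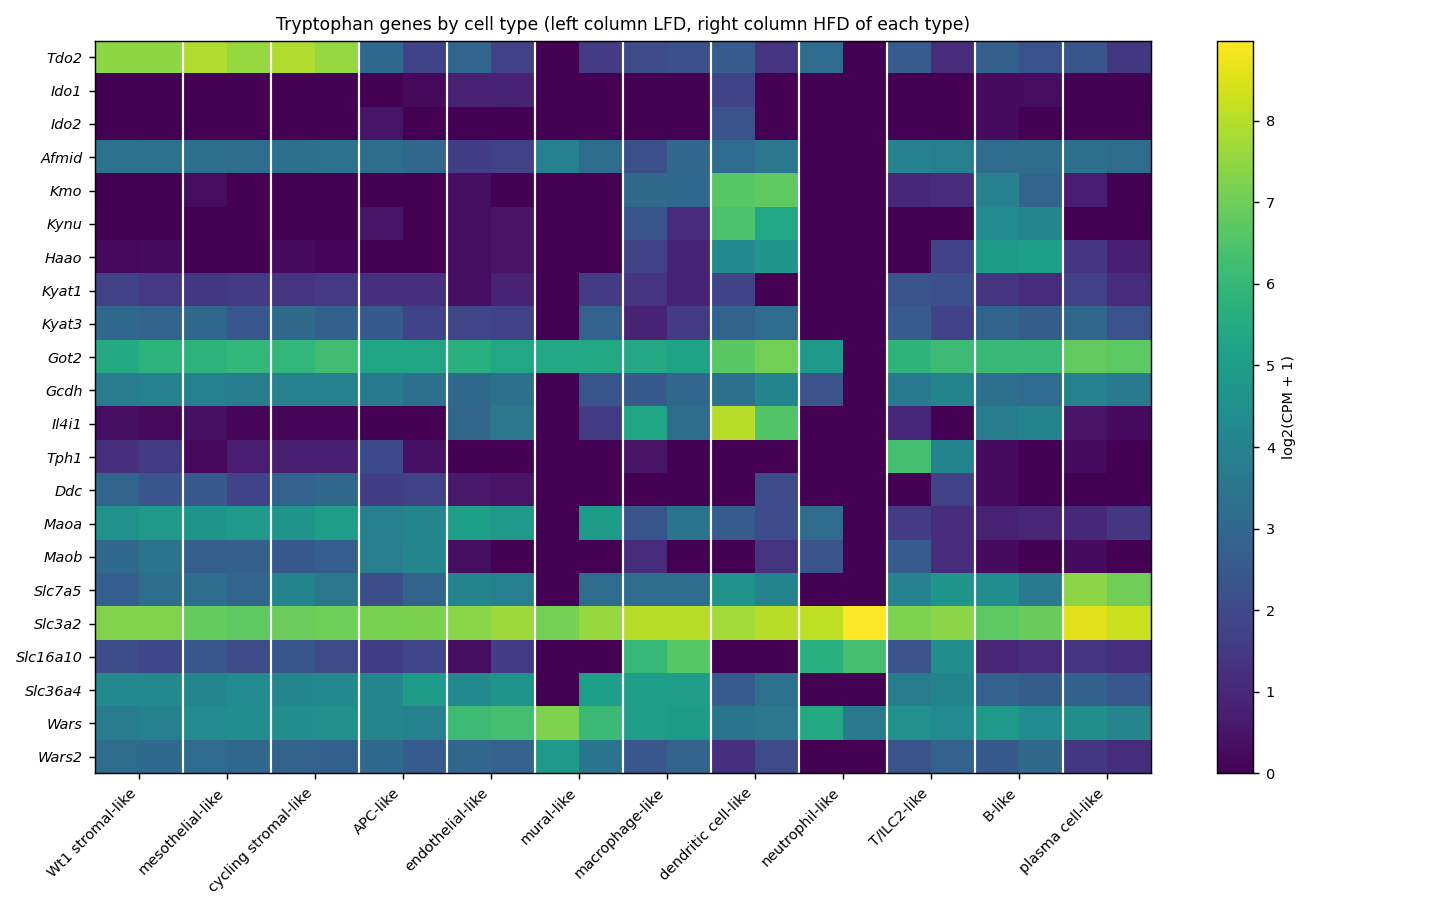
Level, as log2(CPM + 1), of 22 tryptophan genes (rows) in each named cell type (left column LFD, right column HFD). Tdo2 was at 174 to 240 CPM in Wt1 stromal-like, mesothelial-like and cycling stromal-like cells and low elsewhere, while Kynu and Haao were brightest in dendritic cell-like and B-like cells and Kmo in dendritic cell-like cells, with B-like and macrophage-like cells not apart in HFD.

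Slc7a5, the chain of the carrier that moves tryptophan, was highest in plasma cell-like cells. It was at 169 CPM (157 to 180, 858 UMIs) in LFD against 130 CPM (125 to 135, 2673 UMIs) in HFD plasma cell-like cells, a ratio of 0.772 (0.715 to 0.835). With doublets kept it was 0.949 (0.884 to 1.02), no longer apart from 1, and without the cluster of that clustering that carried both plasma cell and mesothelial markers it was 0.778 (0.721 to 0.84). The next type was dendritic cell-like in LFD, 7.26-fold lower (4.56 to 12.3), and T/ILC2-like in HFD, 5.14-fold lower (3.35 to 8.31). After thinning Slc7a5 was found in 28.6% (24.2 to 33.5) of 384 LFD and 19.5% (17.4 to 21.7) of 1360 HFD plasma cell-like cells, against 71.6% and 68.1% before thinning, and thinned Wt1 stromal-like cells had it in 1.12% and 1.14%. Plasma cell-like cells had median depths of 12228 (LFD) and 13589 UMIs (HFD), Wt1 stromal-like cells of 11008.5 and 16835.

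The lower HFD level in plasma cell-like cells differed between the clusters that make up this type. In cluster 6, whose leading genes were Iglv1 and Jchain, Slc7a5 was at 177 CPM in LFD against 108 CPM in HFD (ratio 0.609, 0.54 to 0.687), and in cluster 7, which carried the proliferation genes, at 163 and 149 CPM (ratio 0.915, 0.827 to 1.01). The 10 plasma cell markers summed to 18240 CPM in LFD against 24891 CPM in HFD plasma cell-like cells, so they moved with this result, and their part in it was not tested. Over all cells Slc7a5 was at 17.8 CPM in LFD against 33.6 CPM in HFD, the opposite direction, and plasma cell-like cells, 387 in LFD and 1375 in HFD, held 858 of 1724 and 2673 of 3366 of its UMIs.

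In the other types Slc7a5 was between 0 and 25.3 CPM, and its ratio went both ways. Slc7a5 was at 5.42 CPM in LFD against 8.39 CPM in HFD Wt1 stromal-like cells (ratio 1.55, 1.27 to 1.89). Beside this, the mesothelial markers given above moved as well and the cycling share was 4.54% and 8.72%. Among Wt1 stromal-like cells not called cycling Slc7a5 was at 5.14 and 7.75 CPM, and the part of the mesothelial markers was not tested. Slc7a5 was lower in the HFD library in cycling stromal-like cells (15.8 and 11.1 CPM, ratio 0.703, 0.565 to 0.87) and in B-like cells (20.2 and 12.4 CPM, ratio 0.614, 0.432 to 0.863). The last ratio reversed to 1.16 under a stricter cell filter that left 18 HFD B-like cells, against 822 in the main clustering. The part of cell quality in the B-like values was not tested. The cycling share of B-like cells was 21.8% in LFD and 15.6% in HFD, and its part was not tested. The cycling stromal-like cluster carried 9 of 10 mesothelial and 6 of 8 Wt1 stromal markers, and their part in its ratio was not tested. In mesothelial-like cells the ratio was 0.79 (0.637 to 0.979), from 8.38 and 6.62 CPM. Endothelial-like (15 and 13.7 CPM), macrophage-like (8.36 and 8.52 CPM) and T/ILC2-like cells (14.7 and 25.3 CPM, ratio 1.72, 0.845 to 3.59) were not apart between the libraries. The 10 plasma cell markers summed to 200 CPM in LFD against 757 CPM in HFD T/ILC2-like cells, and their part in that Slc7a5 value was not tested. In LFD APC-like cells, the adipocyte progenitor cluster, Slc7a5 was at 3.51 CPM against an estimated 3.3 CPM of free RNA, so no expression is read there. Slc7a5 lies at chr8:121881150-121907694 on the minus strand.

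Slc3a2, the heavy chain (CD98) that brings SLC7A5 and related carriers to the membrane, was found in all named types. It was at 383 CPM (366 to 401) in LFD against 305 CPM (297 to 312) in HFD plasma cell-like cells, a ratio of 0.795 (0.756 to 0.837). A single LFD cell held 116 of these UMIs (5.95%), and without the top cell of each library the ratio was 0.838 (0.795 to 0.883). Cluster 6 had a ratio of 0.751 and cluster 7 of 0.818, so Slc3a2 was lower in the HFD library in both.

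In the other types Slc3a2 ratios were between 0.939 and 1.22. Slc3a2 was at 256 and 257 CPM in macrophage-like cells, and 154 and 153 CPM in Wt1 stromal-like cells (ratio 0.995, 0.955 to 1.04). In endothelial-like cells Slc3a2 was at 166 and 203 CPM (ratio 1.22, 1.08 to 1.38), which became 1.11 (0.984 to 1.25) relative to the median gene of that type. The cycling share of endothelial-like cells (19.3% in LFD and 5.31% in HFD) and their mural markers, given below, moved as well. Their part in this ratio was not tested. The ratios of B-like (1.14, 1.00 to 1.29) and mesothelial-like cells (0.939, 0.889 to 0.992) also left out 1. Neutrophil-like cells, too few in HFD for a ratio, held Slc3a2 at 275 CPM (70 UMIs) in LFD, below plasma cell-like cells (1.39-fold, 1.1 to 1.79), and at 504 CPM (44 UMIs) in HFD, the highest value there. These cells had median depths of 1264 and 1021.5 UMIs and 0 UMIs of Slc7a5. Slc3a2 thus lay between 104 and 504 CPM in all named types, whereas Slc7a5 set plasma cell-like cells apart from the rest. Within plasma cell-like cells thinned to equal depth, Slc3a2 was in 42.7% of LFD cells with Slc7a5 and 44.9% of those without, and in 44.5% and 38.6% in HFD. Slc3a2 lies at chr19:8706882-8723369 on the minus strand.

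Wars, which joins tryptophan to its tRNA and is known to be induced by interferon gamma, had its highest levels in vascular cells, though not apart from neutrophil-like cells in LFD (43.2 CPM, 11 UMIs). It was at 69.8 CPM (61.6 to 78.7) in LFD against 77.5 CPM (66.9 to 89.2) in HFD endothelial-like cells, a ratio of 1.11 (0.917 to 1.34). Mural-like cells held Wars at 69 CPM (47.8 to 96.4) in 72 HFD cells, 2.4-fold (1.57 to 3.57) above macrophage-like cells, and at 152 CPM in LFD, from 11 UMIs in 11 cells. This mural-like cluster also carried 9 of 9 endothelial markers. After thinning Wars was found in 15.0% of LFD and 14.1% of HFD endothelial-like cells, against 2.63% and 2.86% of Wt1 stromal-like cells, although no type should lack a synthetase.

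Wars was lower in the HFD library in B-like cells, at 27.8 and 19.5 CPM (ratio 0.703, 0.53 to 0.928), and in plasma cell-like cells, at 20.4 and 15.9 CPM (ratio 0.779, 0.623 to 0.981). The second of these did not leave out 1 relative to the median gene of the type (0.835, 0.668 to 1.05). In the 4 stromal types Wars was between 12.6 and 21.6 CPM with no ratio apart from 1. Macrophage-like cells held Wars at 30.7 and 28.8 CPM and T/ILC2-like cells at 22.6 and 19.3 CPM. Wars lies at chr12:108860030-108894174 on the minus strand.

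**Figure D4:**
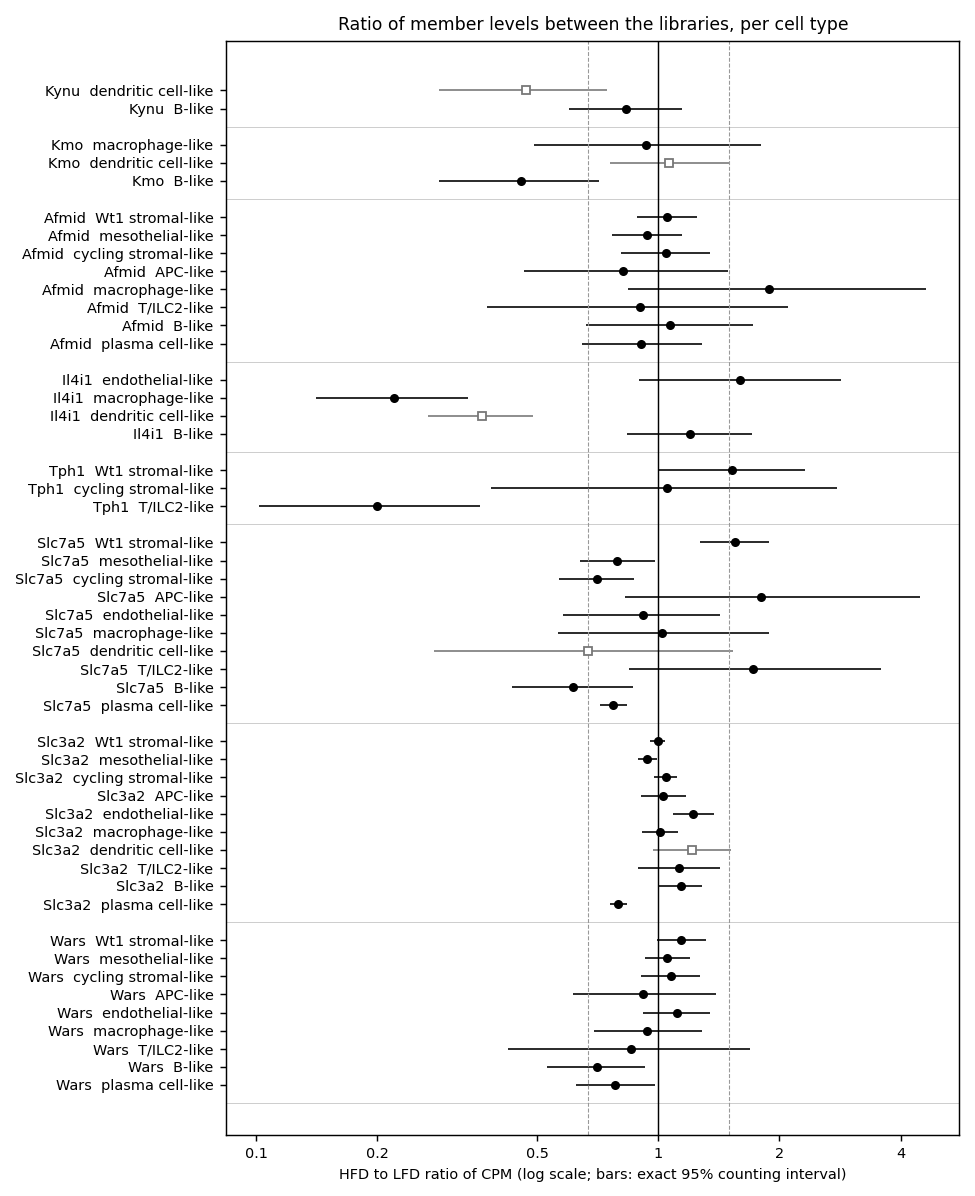
HFD to LFD ratio of CPM (log axis) for each member and type with enough UMIs, with exact conditional 95% intervals as bars, dashed lines at a 1.5-fold difference, and open squares for dendritic cell-like cells, which had under 100 HFD cells. Il4i1 in macrophage-like and dendritic cell-like cells, Tph1 in T/ILC2-like cells, Kynu in dendritic cell-like cells and Kmo in B-like cells lie farthest below 1.

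The number of members past a 1.5-fold difference was counted in each type against all genes with at least 20 UMIs in it. Over 9 types 44 member ratios could be formed, of which 6 were at least 1.5-fold higher and 4 at least 1.5-fold lower in HFD. The 6 became 2 with doublets kept or under the stricter cell filter, and 3 under scaling to the median gene or with at least 50 UMIs. In Wt1 stromal-like cells 2 of 5 members were higher (Tph1 and Slc7a5), against 8.17% of all genes higher and 9.61% lower. In T/ILC2-like cells 1 of 5 was higher (Slc7a5) and 1 lower (Tph1), against 18.0% and 10.4%. In macrophage-like cells 1 of 6 was higher (Afmid) and 1 lower (Il4i1), against 10.6% and 6.39%. With 4 to 7 members in a type, 1 member is already a share at or above these backgrounds, so the counts add little to the ratios of the named members.

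In B-like cells 0 of 7 members were higher and 2 lower (Kmo and Slc7a5), against 9.98% and 7.44% of all genes. In APC-like cells 1 of 4 was higher (Slc7a5, whose LFD level was close to its estimated free RNA and whose ratio reversed to 0.864 with doublets kept) and 0 lower, against 17.5% and 7.34%, and in endothelial-like cells 1 of 4 was higher (Il4i1) and 0 lower, against 19.3% and 9.03%. No member passed 1.5-fold in mesothelial-like (background 10.1% higher, 4.92% lower), cycling stromal-like (9.68% and 5.71%) or plasma cell-like cells (6.97% and 9.55%). In dendritic cell-like cells, added although they had under 100 HFD cells, 0 of 5 were higher and 2 lower (Il4i1 and Kynu), against 13.8% and 12.3%. Of the 6 higher ratios, only that of Slc7a5 in Wt1 stromal-like cells had an interval that left out 1, while all 4 lower ones and both of the dendritic cell-like cells did. The median ratio of all genes was between 1.03 and 1.10 in the 8 types other than plasma cell-like, where it was 0.933. Relative to it, Slc7a5 was at 0.828 (0.766 to 0.895) and Slc3a2 at 0.853 (0.81 to 0.898) in plasma cell-like cells, Slc7a5 at 1.47 (1.2 to 1.79) in Wt1 stromal-like cells, and Tph1 at 0.189 (0.0963 to 0.341) in T/ILC2-like cells.

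Slc7a5 was also read in cycling cells, those with at least 3 UMIs of 8 proliferation genes, because growing cells are known to import more amino acids. In mesothelial-like cells Slc7a5 was at 15.2 CPM in cycling and 7.18 CPM in other cells in LFD (ratio 2.12, 1.5 to 2.95) and at 14.9 and 5.17 CPM in HFD (ratio 2.88, 2.05 to 4.01). In Wt1 stromal-like cells the ratio of cycling to other cells was 1.96 (1.2 to 3.05) in LFD against 1.83 (1.22 to 2.65) in HFD. In B-like cells it was 1.88 (1.26 to 2.8) and 1.98 (1.1 to 3.54). Slc7a5 was thus higher in cycling cells of these 3 types in both libraries, although with at least 5 proliferation UMIs the Wt1 stromal-like LFD ratio no longer left out 1 (1.99, 0.941 to 3.74). In plasma cell-like cells it was at 165 and 178 CPM in LFD (0.924, 0.798 to 1.07) and 138 and 114 CPM in HFD (1.21, 1.11 to 1.31). Over 13 pairs of type and library, 7 Slc7a5 ratios were above 1 beyond counting error and 0 below.

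Slc3a2 did not share this. It was lower in cycling than in other plasma cell-like cells, at 314 and 553 CPM in LFD (ratio 0.569, 0.519 to 0.623) and 257 and 398 CPM in HFD (ratio 0.645, 0.614 to 0.678), and lower in cycling endothelial-like cells (0.628, 0.525 to 0.749 in LFD against 0.463, 0.32 to 0.651 in HFD). Of 13 pairs 0 Slc3a2 ratios were above 1 beyond counting error and 5 below. Wars was lower in cycling LFD endothelial-like cells, at 49.4 against 82.4 CPM (ratio 0.6, 0.451 to 0.79), and higher in cycling HFD plasma cell-like cells (1.39, 1.08 to 1.79). Cycling cells were deeper than others, with medians of 10695.5 against 3083.5 UMIs in LFD endothelial-like cells, and CPM scales each group to its own total.

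**Figure D5:**
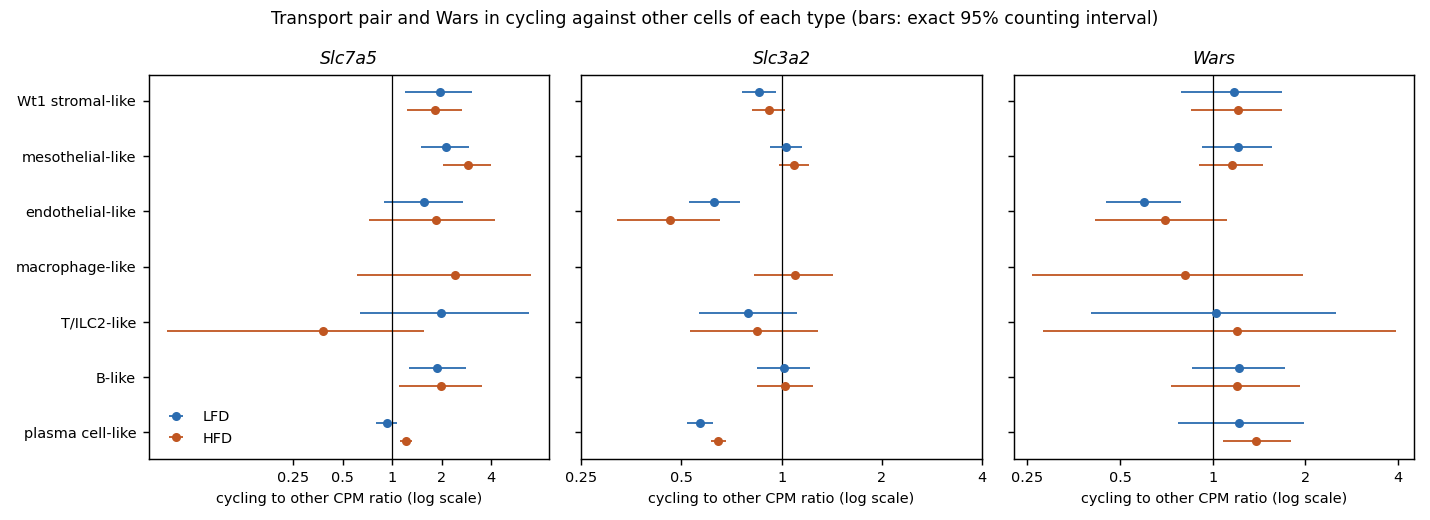
Ratio of CPM in cycling to other cells of a type (log axis) for Slc7a5, Slc3a2 and Wars, with 1 point per library and exact conditional 95% intervals. Slc7a5 lay above 1 in Wt1 stromal-like, mesothelial-like and B-like cells of both libraries, and Slc3a2 below 1 in endothelial-like and plasma cell-like cells.

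Further tryptophan genes were taken from a list of 25, of which 14 had at least 100 UMIs and Acmsd had 0. Besides Tdo2, Haao, Ddc, Slc6a4, Maoa and Maob these were Kyat1 (346 UMIs), Kyat3 (1113), Got2 (12094), Gcdh (2468), Wars2 (1230), Gpr35 (368), Slc16a10 (1091) and Slc36a4 (3203), where the first 3 are transaminases that act on kynurenine. Slc16a10, an aromatic amino acid carrier, was higher in the HFD library in macrophage-like cells, at 63.7 and 98.4 CPM (ratio 1.54, 1.28 to 1.88). It was at 3.93 CPM (4 UMIs) and 20.5 CPM (17 UMIs) in T/ILC2-like cells (ratio 5.22, 1.7 to 21.3). The plasma cell markers given above for T/ILC2-like cells moved as well, and their part in this ratio was not tested. Gpr35, a receptor for kynurenic acid, was at 53.7 and 40.8 CPM in macrophage-like cells (ratio 0.76, 0.595 to 0.97).

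A further list of amino acid carriers held cationic, cystine and glutamine carriers beside large neutral ones. Of 10 such carriers with enough UMIs in plasma cell-like cells, 1 was at least 1.5-fold higher (Slc7a8, 4.52 and 7.2 CPM) and 1 lower in HFD (all genes 6.97% and 9.55%). Their median log2 ratio was -0.02 against -0.10 for all genes. In macrophage-like cells 0 of 10 carriers were higher and 3 lower (all genes 10.6% and 6.39%), among them the cystine carrier Slc7a11 at 149 and 87 CPM (ratio 0.586). In T/ILC2-like cells 2 of 7 carriers were higher and 0 lower (all genes 18.0% and 10.4%), with the glutamine carrier Slc38a1 at 187 and 349 CPM (ratio 1.87), beside plasma cell markers at 200 and 757 CPM in these cells, whose part was not tested. In Wt1 stromal-like cells 1 of 11 was higher, Slc7a1, the cationic amino acid carrier, at 11.2 and 21.1 CPM (ratio 1.89, 1.66 to 2.16), beside the mesothelial markers (128 and 422 CPM) and cycling share (4.54% and 8.72%) of these cells, whose part was not tested. There 3 were lower (all genes 8.17% higher and 9.61% lower), among them its relative Slc7a2, at 18.9 and 5.08 CPM (ratio 0.268, 0.219 to 0.325). These lists are described by counts and medians only, with no test.

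Genes of the amino acid response, which ATF4 drives when amino acids are short and which include known regulators of Slc7a5, were read in plasma cell-like cells. Of 14 such genes 1 was at least 1.5-fold higher and 6 lower in HFD (all genes 6.97% and 9.55%), with a median log2 ratio of -0.49 against -0.10 for all genes. The plasma cell markers (18240 and 24891 CPM) moved as well, and their part was not tested. In endothelial-like cells 1 of 13 was higher and 6 lower (all genes 19.3% and 9.03%), where Slc7a5 was not apart, and in APC-like cells 2 of 13 were higher and 0 lower (all genes 17.5% and 7.34%). In plasma cell-like cells Atf5 was at 84.3 and 48 CPM (ratio 0.57, 0.508 to 0.639) and Trib3 at 3.93 and 1.51 CPM (ratio 0.384, 0.212 to 0.711). Chac1, a glutathione-degrading enzyme, went the other way, at 11 and 22.4 CPM (ratio 2.04, 1.54 to 2.74).

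The 18 other cytosolic tRNA synthetases gave a reference for Wars. In plasma cell-like cells 0 of the 18 passed 1.5-fold (all genes 6.97% higher and 9.55% lower), with a median equal to that of all genes (log2 -0.10). In Wt1 stromal-like cells 1 of 18 was at least 1.5-fold higher and 0 lower (all genes 8.17% and 9.61%), with a median log2 ratio of 0.30 against 0.08 for all genes, while the ratio of Wars there was 1.14 (0.99 to 1.31). The mesothelial markers (128 and 422 CPM) and the cycling share (4.54% and 8.72%) moved with this list, and their part in it was not tested. Eprs, the glutamyl-prolyl synthetase, was at 235 and 389 CPM in these cells (ratio 1.65, 1.61 to 1.7). In endothelial-like cells 0 of 18 synthetases were higher and 1 lower (all genes 19.3% and 9.03%), with a median log2 ratio of -0.25 against 0.14, and the Wars ratio was 1.11. The cycling share of endothelial-like cells was 19.3% in LFD and 5.31% in HFD and the 10 mural markers summed to 65.6 and 239 CPM there, and their part in this and the other lists in these cells was not tested.

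Genes of the interferon gamma response, to which Ido1 and Wars belong, were counted in the same way, and the difference between types was not tested. In endothelial-like cells 4 of 15 were at least 1.5-fold higher and 1 lower in HFD, near the shares of all genes (19.3% and 9.03%), with a median log2 ratio of 0.38 against 0.14 for all genes. The chemokine Cxcl9 was at 90.8 and 159 CPM there (ratio 1.75, 1.51 to 2.03), while Cxcl10 was at 30.5 and 15.7 CPM (ratio 0.515). In macrophage-like cells 0 of 14 were higher and 3 lower (all genes 10.6% and 6.39%), with Cxcl10 at 29.5 and 11.5 CPM (ratio 0.389), and in plasma cell-like cells 0 of 14 were higher and 5 lower (all genes 6.97% and 9.55%). The plasma cell markers of the latter cells, given above, moved as well, and their part in this list was not tested. Wars was not apart between the libraries in endothelial-like or macrophage-like cells, and Ido1 had at most 3 UMIs per library in each of them.

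Over 23 pairs of cell type and library with at least 50 cells, each member with at least 200 UMIs was set beside 13108 genes by Pearson's r of log2(CPM + 1). These points come from 12 types that share the same libraries and differ in depth, so the values are a description. Tph1 was most like Cyp11a1 (r = 0.937), Il5 (0.916) and Il13 (0.916). Kmo was most like Ciita (0.963), Kynu (0.948) and Pkib (0.939), and Kynu like Kmo (0.948), Ccl22 (0.934) and Ciita (0.927). Il4i1 was most like Tbc1d9 (0.930), Batf3 (0.900) and Kmo (0.893), although Il4i1 and Kmo lay in different dendritic states.

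The remaining members had less particular neighbours. Slc7a5 was most like Nmral1 (0.910), Srp9 (0.906) and Mrpl57 (0.900), and Wars like Inka1 (0.937), Arhgef15 (0.906) and Thrsp (0.899). Afmid was most like Fahd2a (0.911), Mmgt2 (0.907) and Gm6133 (0.905). Slc3a2 had the weakest likeness, with Gtf2a1 (0.840), Dgkg (0.825) and Atp6ap2 (0.825). Ido1 and Ido2 had too few UMIs to be compared.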

How the data were processed

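Per the labels and the study's methods, the authors aligned 10x Genomics 3′ libraries to mm10 with Cell Ranger 4.0.0, which runs STAR, and deposited whole-number UMI counts per gene and barcode. The annotation release behind these counts is not given in the sources used here, and eYFP and Cre are not among the genes counted. Per the methods, the authors kept barcodes with at least 100 genes, 500 to 40000 UMIs and under 12.5% mitochondrial UMIs, excluded doublets and integrated the libraries in Seurat 4.1.0. The cell filter was repeated here, the libraries were integrated by anchors and clustered in Seurat 5.3.0 at a resolution of 0.3, taken from the name of the study's processing file since the methods text gives none, and Scrublet (scanpy 1.11.5) removed 922 LFD and 658 HFD barcodes as doublets at 0.8% per 1000 barcodes. Members and listed genes were left out of the variable genes. The members and lists were chosen with earlier results of these data known.

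A cluster was named from a marker list when at least 3 markers and 50% of the list were in at least 10% of its cells and over 2 times their level in the median cluster. Counts were summed per type and library. Intervals were exact at 95% (Poisson for CPM, conditional binomial for ratios, Clopper-Pearson for shares), and none covers the spread between mice or libraries. Ratios needed 100 cells in each library and 20 UMIs, a call 1.5-fold. A gene at 0 was read against a floor of 3 counts. Free RNA was estimated from Jchain and stromal genes found outside their own types. All members are named, with listed tryptophan genes of at least 100 UMIs, examples from the 3 genes per other list with the largest log2 ratio among those with at least 50 UMIs, and the 3 most alike genes per member. The ratio script was tested on simulated counts. Doublet filter, cell filter, resolution, scaling, count minimum, fold and proliferation threshold were varied, as the closing section gives.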

Additional observations from a re-analysis of the deposited data

Results flagged for a closer look

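Slc7a5 differed in direction between cell types under the same comparison of diets. Its HFD to LFD ratio was above 1 beyond counting error in Wt1 stromal-like cells (1.55) and below 1 in mesothelial-like (0.79), cycling stromal-like (0.703), B-like (0.614) and plasma cell-like cells (0.772). Slc3a2 did so as well, with ratios of 1.22 in endothelial-like and 1.14 in B-like cells against 0.939 in mesothelial-like and 0.795 in plasma cell-like cells. Relative to the median gene of each type the Slc3a2 ratios of endothelial-like (1.11, 0.984 to 1.25) and B-like cells (1.1, 0.972 to 1.24) no longer left out 1, while Slc7a5 was at 1.47 in Wt1 stromal-like cells. Under a stricter cell filter the B-like ratio of Slc7a5 reversed to 1.16. With doublets kept the plasma cell-like ratio of Slc7a5 was 0.949 (0.884 to 1.02), no longer below 1 beyond counting error. The cycling share moved as well, from 4.54% in LFD to 8.72% in HFD in Wt1 stromal-like cells and from 21.8% to 15.6% in B-like cells. In endothelial-like cells it moved from 19.3% to 5.31%. Its part in these ratios was not tested. The differences between cell types were not tested either, since each diet had 1 library.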

How the results depend on the processing

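No paired analysis was possible because each diet had 1 library. Over 386 recomputed values of 44 member ratios, 355 stayed within the counting interval reported, 29 moved beyond it and 2 reversed, and the number of members at least 1.5-fold lower stayed between 3 and 6. Wide intervals at low counts left little room to move beyond them, and only ratios past 1.5-fold could be called reversed. The reversals were Slc7a5 in APC-like cells with doublets kept (0.864) and Slc7a5 in B-like cells under a stricter cell filter (1.16), which left 18 HFD B-like cells. With doublets kept, the plasma cell-like ratios were 0.949 (0.884 to 1.02) for Slc7a5 and 0.935 (0.894 to 0.978) for Slc3a2, and 2 members were higher. That clustering put a cluster of 149 LFD and 131 HFD cells, which carried 9 of 10 plasma cell and 9 of 10 mesothelial markers, among the plasma cell-like cells, and without it, an alternative chosen after seeing the data, the ratios were 0.778 and 0.787. Under the stricter filter Tph1 in T/ILC2-like cells was at 0.368 and 2 members were higher. The part of cell quality in the values under this filter was not tested. Scaling to the median gene gave 0.853 for Slc3a2 in plasma cell-like cells and 3 higher members. Asking for 50 UMIs also gave 3, and a 2-fold threshold 0 higher and 3 lower. Chosen after seeing the data, leaving out the top cells gave 0.838 for Slc3a2 in plasma cell-like cells, cluster 6 alone 0.609 for Slc7a5 and 0.751 for Slc3a2, and cluster 7 alone 0.915 for Slc7a5. With at least 5 proliferation UMIs to call a cell cycling, 1 Slc7a5 ratio was below 1 and 1 Slc3a2 ratio above 1 beyond counting error. Where a value moved, the cause was not tested. Ido1 and Ido2 (at most 3 UMIs in a type and library) gave no ratios at these depths.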
